A study of Mus musculus with 6 samples.

Results

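The immediate early genes Fos, Fosb, Junb, Egr1, Egr3, Arc, Npas4, Nr4a1, Dusp1 and Ier2 were followed through mouse dorsal root ganglia, which house the cell bodies of sensory neurons. They were chosen by symbol as transcripts known to be induced by activity and handling, and all 10 were found among the 22087 rows of the gene table. Poly(A) RNA of ganglia from mice aged 3 months was sequenced in 2 groups of 3 libraries. Control mice had the genotype Kif2a fl/fl, with both alleles of the kinesin gene Kif2a flanked by loxP sites and no Cre. Conditional knockout mice had the genotype Kif2a fl/fl, Avil Cre, so that the floxed alleles are shared by both groups. By genotype label the groups differ in Cre, placed under Avil, the gene for the sensory neuron protein advillin. The RNA came from whole ganglia, in which glia, vessels and immune cells do not carry the deletion. Nothing in the labels states whether replicates were separate animals or pools, or how the mice were handled before the tissue was taken. The p-values here rest on library-to-library spread, part of which could be technical.

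Immediate early genes are transcribed within minutes of a stimulus, without the need for new protein. In neurons, calcium entry and neurotrophin signalling reach them through MAP kinase, calmodulin kinase and protein kinase A, which act on the transcription factors SRF, ELK1, MEF2 and CREB already bound at their promoters. In the dorsal horn of the spinal cord, Fos and Egr1 have long served as readouts of noxious stimulation. The same genes respond to tissue handling in glia, vascular cells and immune cells. In RNA from whole ganglia, fewer cells that express a gene and less RNA per cell cannot be told apart.

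Total counts ranged from 21683083 to 31626625 per library. Kif2a was at 80.4 to 90.0 CPM (counts per 1000000, with totals scaled by TMM, the trimmed mean of M values) in control and at 66.5 to 69.8 CPM in the conditional knockout, without overlap. Conditional knockout libraries all lay below control libraries for 4.70% of tested genes. The log2 fold change of Kif2a was -0.33 ± 0.10 (SE). In the tests described below Kif2a did not pass over all genes, and its adjusted p was 0.531 with DESeq2. The submitters' own fdrtool value for Kif2a (a false discovery rate) was 0.0408, below 0.05 as for 1.18% of their rows. They did not mark Kif2a as passing at a fold of 1.5. Avil was at 562 to 593 CPM in control and at 239 to 365 CPM in the conditional knockout. Sensory neuron markers were abundant in every library, with the 12 markers of that list summing to between 8730 and 12600 CPM and no marker at 0. Conditional knockout replicate 1 had the lowest neuron sum, at 8730 CPM, and the highest sums of fibroblast markers (3753 CPM, against 962 to 2087 in the other 5 libraries) and macrophage markers (324 CPM, against 106 to 215). Control replicate 2 had the highest sum of spinal cord and brain markers, at 140 CPM against 33.0 to 61.9.

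RefSeq promoter windows on GRCm38.p6, from 250 bases before to 50 bases after the start of transcription, were at hand for 6 of the 10 genes. All 6 held the core of the cAMP response element, TGACG on either strand, which 20.8% of 32851 windows of the same length hold. This element is bound by CREB, the factor through which calcium and cAMP reach many immediate early genes. The member windows were rich in G and C, with 58.7% to 72.3% against a median of 52.7% over all windows, and the element contains a CpG. The promoters of 4 genes whose levels went together across libraries (Fos, Fosb, Junb and Npas4) and of Nr4a1, whose highest library stood alone, are shown 5′ to 3′ in the direction of the gene, with TGACG and its reverse complement CGTCA in capitals. They lie at chr12:85473640-85473939 on the plus strand for Fos, chr7:19309996-19310295 on the minus strand for Fosb, chr8:84978699-84978998 on the minus strand for Junb, chr19:4989922-4990221 on the minus strand for Npas4 and chr15:101266596-101266895 on the plus strand for Nr4a1.
Fos: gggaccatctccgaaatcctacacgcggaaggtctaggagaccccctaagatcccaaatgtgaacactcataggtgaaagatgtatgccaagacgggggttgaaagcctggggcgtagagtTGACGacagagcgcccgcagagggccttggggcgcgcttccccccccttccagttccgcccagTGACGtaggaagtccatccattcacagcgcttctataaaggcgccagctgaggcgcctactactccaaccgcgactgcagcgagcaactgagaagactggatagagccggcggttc
Fosb: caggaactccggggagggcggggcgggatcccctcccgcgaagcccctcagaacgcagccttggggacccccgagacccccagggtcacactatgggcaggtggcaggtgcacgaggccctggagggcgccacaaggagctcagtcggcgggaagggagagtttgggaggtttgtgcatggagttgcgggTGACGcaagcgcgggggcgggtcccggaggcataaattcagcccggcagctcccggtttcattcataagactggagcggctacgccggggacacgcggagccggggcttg
Junb: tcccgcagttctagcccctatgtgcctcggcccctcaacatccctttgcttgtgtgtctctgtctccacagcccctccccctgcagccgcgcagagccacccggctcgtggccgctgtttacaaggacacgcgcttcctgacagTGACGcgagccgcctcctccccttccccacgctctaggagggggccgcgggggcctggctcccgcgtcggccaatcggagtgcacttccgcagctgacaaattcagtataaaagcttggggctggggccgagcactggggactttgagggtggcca
Npas4: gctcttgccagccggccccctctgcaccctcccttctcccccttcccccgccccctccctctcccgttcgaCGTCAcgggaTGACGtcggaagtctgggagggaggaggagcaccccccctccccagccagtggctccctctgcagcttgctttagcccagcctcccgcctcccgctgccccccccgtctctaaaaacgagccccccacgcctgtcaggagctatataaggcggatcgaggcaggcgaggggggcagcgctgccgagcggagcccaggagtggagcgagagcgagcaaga
Nr4a1: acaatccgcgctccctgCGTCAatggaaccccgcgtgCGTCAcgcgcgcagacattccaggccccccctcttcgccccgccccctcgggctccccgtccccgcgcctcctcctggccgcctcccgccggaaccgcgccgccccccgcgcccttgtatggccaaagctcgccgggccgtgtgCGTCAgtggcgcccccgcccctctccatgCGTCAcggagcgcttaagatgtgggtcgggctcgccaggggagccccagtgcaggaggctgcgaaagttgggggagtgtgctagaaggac

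The Nr4a1 window held 4 copies, all on the reverse strand, where Fos and Npas4 held 2 each and Fosb and Junb 1 each. In Fos the copies begin 129 and 66 bases before the start. Dusp1, whose window is not shown, held 3 copies and was the only one of the 6 with the full palindrome TGACGTCA, which 1.79% of all windows hold. The TATA motif TATAAA was in the windows of Fos and Junb (13.6% of all windows), and the EGR motif GCGNGGGCG in those of Fosb and Nr4a1 (5.55%). The CArG box bound by SRF (1.63%), the AP-1 motif TGANTCA (7.81%) and the NR4A motif AAAGGTCA (1.51%) were in none of the 6, each searched on both strands. A match describes letters in the window and is not a measured binding site. Sites more than 250 bases before the start lie outside the windows and were not searched, so absence here is absence from the window only.

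Transcripts of the 10 genes spanned a wide range of levels. Levels of different genes were set beside each other as CPM per kilobase of the principal GENCODE transcript. In control the highest were Dusp1 at 11.1 ± 0.834, Nr4a1 at 10.2 ± 1.06 and Junb at 9.95 ± 1.97 CPM per kilobase (SD, n = 3), which did not differ beyond their spread. A second tier held Ier2 at 4.96 ± 1.47, Egr1 at 3.69 ± 0.442 and Fos at 3.08 ± 0.898 CPM per kilobase, neighbours that also overlapped in their spread. Egr3 at 1.49 ± 0.129 and Arc at 1.34 ± 0.194 CPM per kilobase formed the third. The lowest were Fosb at 0.337 ± 0.169 and Npas4 at 0.182 ± 0.138 CPM per kilobase. Npas4 rested on 9 to 28 counts per library and Fosb on 11 to 46, so both carry wide counting error.

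**Figure D1:**
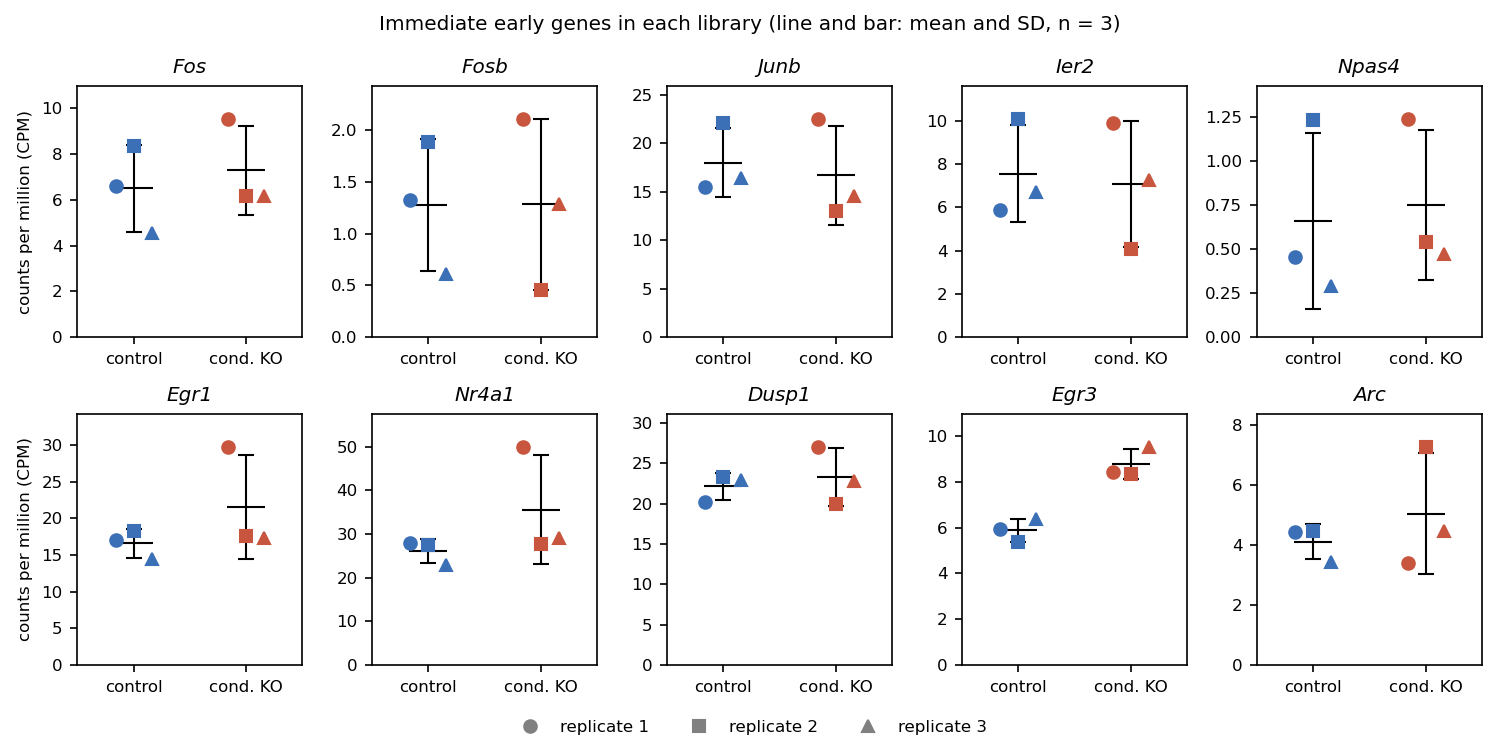
Levels of the 10 immediate early genes in CPM (y axis, from 0) in the 3 control and 3 conditional knockout libraries (x axis); each symbol is a library and lines with bars are the mean and SD. Only Egr3 has its conditional knockout libraries, at 8.36 to 9.54 CPM, all above its control libraries, at 5.35 to 6.37 CPM.

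Between genotypes, 0 of the 10 genes passed the edgeR quasi-likelihood test at a Benjamini-Hochberg adjusted p under 0.05 over all 17759 genes tested, where 0.0225% of genes passed. DESeq2 also called 0 of 10, against 0.205% of the genes it adjusted, and limma-trend called 0 of 10. At an unadjusted edgeR p under 0.05 there was 1 member, Egr3, against 4.67% of all genes. By fitted fold change 8 members were higher and 2 lower. The median log2 fold change was 0.18 beside 0.006 for all genes. Their summed level was 109 ± 12.2 CPM (SD, n = 3) in control, against 127 ± 32.0 CPM with Cre. The sums overlapped, at 105, 122 and 98.6 CPM in control replicates 1 to 3, against 164, 105 and 113 CPM in conditional knockout replicates 1 to 3. Conditional knockout replicate 1 alone carried the higher mean. Without it the summed level of the conditional knockout was 100.2% of control, in place of 117%, and the median log2 fold change was -0.05, with 4 members higher and 6 lower. Leaving out control replicate 2 moved it the other way, to 0.41 with 10 higher and 0 lower. It was 0.34 without conditional knockout replicate 2 or 3 (9 and 8 higher), 0.11 without control replicate 1 (8 higher) and 0.04 without control replicate 3 (5 higher).

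Fos, Fosb and Junb encode subunits of the AP-1 transcription factor, in which a FOS protein pairs with a JUN protein. Fos (chromosome 12, 85473890 to 85477273, plus strand, 4 exons) reached 6.61, 8.34 and 4.56 CPM in control, against 9.53, 6.16 and 6.16 CPM in conditional knockout, values being given here and for each gene in the order of replicates 1 to 3. The highest and the second highest library belong to different genotypes, and the groups overlap. Its log2 fold change was 0.17 ± 0.27 (SE), with a 95% interval from -0.45 to 0.79 and an edgeR adjusted p of 1.0. Fosb (chromosome 7, 19302696 to 19310051, minus strand), which in other tissues also gives rise to the long-lived splice form ΔFosB, was at 1.32, 1.89 and 0.614 CPM in control, against 2.11, 0.455 and 1.28 CPM in conditional knockout. Both groups span nearly the whole range of Fosb, which was 4.63-fold between the highest and the lowest library, while the log2 fold change between genotypes was 0.02 ± 0.58. Junb (chromosome 8, 84974484 to 84978718, minus strand, 1 exon) was at 15.5, 22.1 and 16.4 CPM in control, against 22.5, 13.1 and 14.6 CPM in conditional knockout. The highest library of each genotype was near 22 CPM and all the others lay under 17 CPM, and the log2 fold change was -0.11 ± 0.23. The annotated span of Junb overlaps Prdx2 on the opposite strand, though its principal exon does not.

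Ier2 and Npas4 had the same pair of high libraries. Ier2 (chromosome 8, 84661331 to 84662852, minus strand, 1 exon), a short nuclear protein of the growth factor response, was at 5.88, 10.1 and 6.69 CPM in control, against 9.90, 4.05 and 7.28 CPM in conditional knockout. Its log2 fold change was -0.10 ± 0.34. Npas4 (chromosome 19, 4984355 to 4990316, minus strand), a basic helix-loop-helix factor of neurons that responds to calcium entry rather than to growth factors, was at 0.456, 1.23 and 0.291 CPM in control, against 1.24, 0.538 and 0.471 CPM in conditional knockout. Control replicate 2 and conditional knockout replicate 1 stood apart, and the other 4 libraries lay at or under 0.538 CPM. The counts behind them were 28 and 27, with exact 95% Poisson intervals of 18.6 to 40.5 and 17.8 to 39.3 counts that cover counting error only, against 9 to 13 counts elsewhere. The log2 fold change of Npas4 between genotypes was 0.20 ± 0.60.

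**Figure D2:**
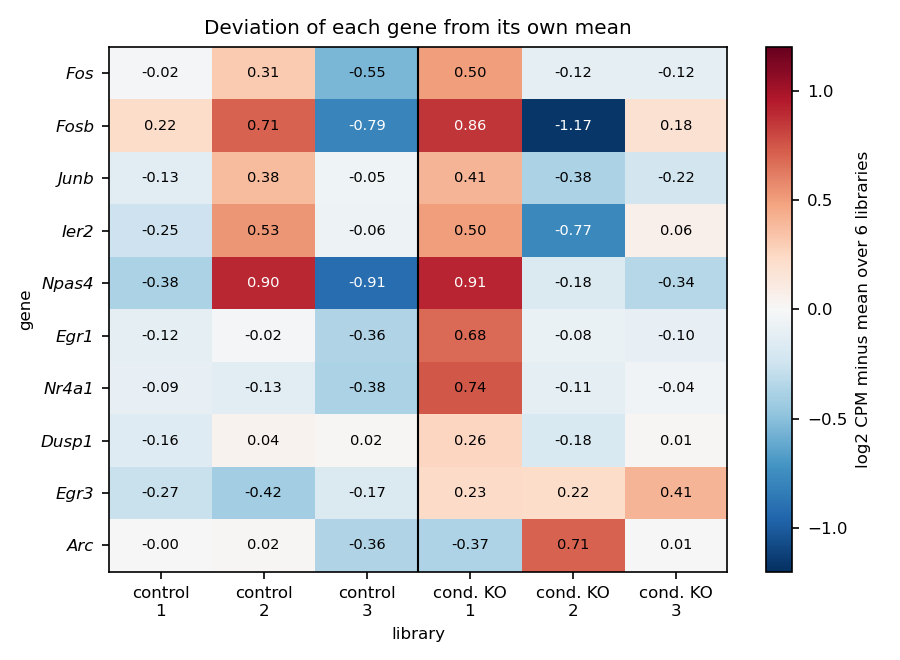
Deviation of log2 CPM (prior count 2) of each gene (rows) from its own mean over the 6 libraries (columns), with the value printed in each cell; red is above and blue below the mean. Fos, Fosb, Junb, Ier2 and Npas4 are high in control replicate 2 and conditional knockout replicate 1, Egr1 and Nr4a1 in the latter alone, Egr3 in all 3 conditional knockout libraries and Arc in conditional knockout replicate 2.

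Egr3 and Egr1 encode zinc finger factors of one family that bind the same GC-rich motif. Egr3 (chromosome 14, 70077203 to 70082614, plus strand, 2 exons), a factor required for muscle spindles and their innervation, was at 5.93, 5.35 and 6.37 CPM in control, against 8.43, 8.36 and 9.54 CPM in conditional knockout. All conditional knockout libraries lay above all control libraries, as they did for 3.96% of tested genes. The means were 5.88 ± 0.507 and 8.78 ± 0.665 CPM (SD, n = 3), so that the conditional knockout stood at 149% of control. On the log2 scale this was 0.58 ± 0.17 (SE), with a 95% interval from 0.19 to 0.96. Its unadjusted edgeR p was 0.00840 and its adjusted p was 0.996, so that Egr3 did not pass over all genes. The adjusted p was 0.469 with DESeq2 and 0.974 with limma-trend, while an exact permutation test (two-sided) gave 0.1, the lowest p that 3 against 3 libraries can give. When each library was dropped, the log2 fold change ranged from 0.52 to 0.65 and the adjusted p did not go below 0.237. In the authors' deposited table Egr3 had a log2 fold change of 0.58, a p-value of 0.00467 and a false discovery rate from fdrtool of 0.0233, under 0.05 as for 1.18% of rows, and it did not carry the mark for passing at a fold of 1.5, its fold being 1.49. Summed spinal cord and brain markers also separated the groups, at 61.6 to 140 CPM in control and 33.0 to 60.9 CPM in the conditional knockout, with 6 of 6 tested markers lower and Slc6a5 at 0 in at least 1 library; their part in the Egr3 difference was not tested.

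Egr1 (chromosome 18, 34859823 to 34864984, plus strand, 2 exons) was at 17.0, 18.3 and 14.4 CPM in control, against 29.8, 17.6 and 17.3 CPM in conditional knockout. Conditional knockout replicate 1 stood 1.63-fold above the next library, and the other 5 lay within 14.4 to 18.3 CPM. The log2 fold change was 0.38 ± 0.22 (SE), with a 95% interval from -0.13 to 0.89, and it was 0.09 without that library. Nr4a1 (chromosome 15, 101254269 to 101274795, plus strand), an orphan nuclear receptor also known as Nur77, was at 27.9, 27.3 and 23.0 CPM in control, against 50.0, 27.6 and 29.0 CPM in conditional knockout. It had the same single high library, 1.72-fold above the next. Its log2 fold change was 0.45 ± 0.23, with a 95% interval from -0.08 to 0.97 and an edgeR adjusted p of 1.0, and it was 0.13 without conditional knockout replicate 1.

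Dusp1 varied little, and Arc followed a course of its own. Dusp1 (chromosome 17, 26505590 to 26562128, minus strand), a phosphatase that switches off MAP kinases and is also a target of glucocorticoids, was at 20.2, 23.3 and 22.9 CPM in control, against 27.1, 19.9 and 22.8 CPM in conditional knockout. It had the narrowest range of the 10, 1.36-fold between the highest and the lowest library. Its log2 fold change was 0.07 ± 0.14, and the 95% interval from -0.25 to 0.39 is the tightest of the 10. Arc (chromosome 15, 74669083 to 74672570, minus strand), a cytoskeletal protein of synapses that is derived from a retrotransposon capsid, was at 4.42, 4.48 and 3.43 CPM in control, against 3.39, 7.28 and 4.45 CPM in conditional knockout. Arc was highest in conditional knockout replicate 2, where Fosb, Junb, Dusp1 and Ier2 were lowest, and it was lowest in conditional knockout replicate 1, where 7 of the 10 genes were highest. Its log2 fold change was 0.30 ± 0.30, and it was -0.06 without conditional knockout replicate 2.

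**Figure D3:**
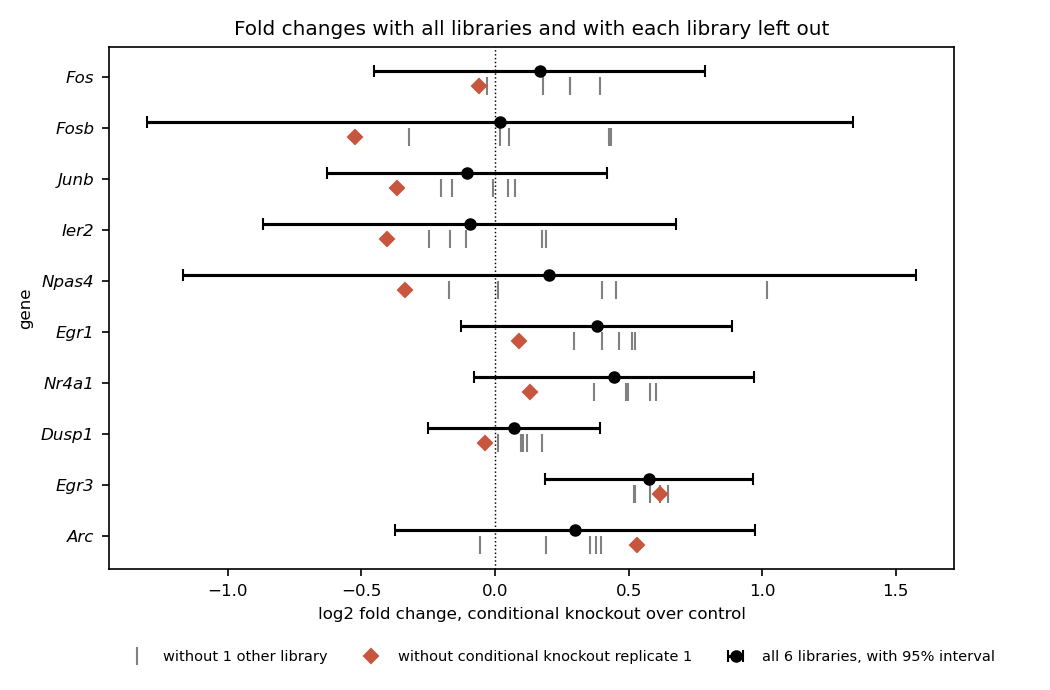
Log2 fold change of each gene, conditional knockout over control (x axis), from all 6 libraries with its 95% interval (black), without conditional knockout replicate 1 (diamonds) and without each other library (ticks). The interval of Egr3, from 0.19 to 0.96, lies above 0, and without conditional knockout replicate 1 Fos, Fosb, Npas4 and Dusp1 move below 0.

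Across libraries, 7 of the 10 genes (Fos, Fosb, Junb, Ier2, Npas4, Egr1 and Dusp1) had control replicate 2 and conditional knockout replicate 1 as their 2 highest libraries, as 10.4% of all tested genes did. For Egr1 and Dusp1, control replicate 2 was second by a narrow margin. It was at 18.3 CPM for Egr1 (next library 17.6) and at 23.3 CPM for Dusp1 (next library 22.9). Those next values lie inside its 95% Poisson intervals. The pair was singled out after the values were seen, so the count is a description. Summed over the 10 genes, these libraries were at 122 and 164 CPM and the other 4 at 98.6 to 113 CPM. The same pair was highest for 16 of 43 other rapidly induced genes, 7 of 32 upstream kinases and factors and 3 of 12 hypoxia genes. It was highest for 2 of 5 EGR and NR4A relatives, 2 of 14 delayed genes and 1 of 6 AP-1 relatives. The pair was also highest for 1 of 16 glucocorticoid genes (Dusp1, already among the 7) and 0 of 15 heat shock genes. Of markers of other cells, 5 of 5 tested adipocyte markers, 4 of 6 erythroid, 4 of 8 mural cell, 3 of 7 fibroblast and 3 of 9 macrophage markers had it too. It held for 1 of 8 endothelial, 1 of 7 lymphocyte and 1 of 6 spinal cord and brain markers, and for 0 of the sensory neuron (12), satellite glia (8), Schwann cell (7), neutrophil (8) and skeletal muscle (7) markers. By summed level, conditional knockout replicate 1 was also highest for Schwann cell (9426 CPM), skeletal muscle (318 CPM), endothelial (200 CPM) and lymphocyte (82.8 CPM) markers. It was not highest for satellite glia, neutrophil, sensory neuron or spinal cord and brain markers. Conditional knockout replicate 2 had the lowest fibroblast, macrophage, Schwann cell, lymphocyte and erythroid sums and the highest sensory neuron sum. The 6 adipocyte markers summed to 8.27 to 29.4 CPM in control and 4.22 to 62.1 CPM in the conditional knockout, with Lep at 0 in at least 1 library. The part of these cells in the pattern of the immediate early genes was not tested. With both libraries left out, 6 members were higher and 4 lower in the conditional knockout, the median log2 fold change was 0.16, and 0 members passed in edgeR, with 1 at an unadjusted p under 0.05.

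The spread between replicates of one genotype was wide for most of the 10. The pooled SD of log2 CPM within groups had a median of 0.38 over the members and 0.22 over all tested genes. Fosb, at 0.91, and Npas4, at 0.82, were at percentiles 97.7 and 96.5 of all tested genes, and Ier2, at 0.54, at percentile 88.2. Fos, Arc, Junb, Egr1 and Nr4a1 lay between 0.34 and 0.42. Low counts widen this measure, and genes near the level of Npas4 and Fosb spread more in general. The coefficient of biological variation of edgeR allows for this. It was 0.473 for Fosb and 0.464 for Npas4, where the trend at their level was 0.311 and 0.316. It was above the trend for 8 of the 10, though only just for Fos (0.262 against 0.259) and Arc (0.278 against 0.277). The share of all tested genes above the trend was not computed, so this count has no reference. Egr3, at an SD of 0.12 and percentile 15.0, and Dusp1, at 0.17 and percentile 37.1, were the members below the trend. Egr3, the member whose genotypes did not overlap, thus had the least spread within them.

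**Figure D4:**
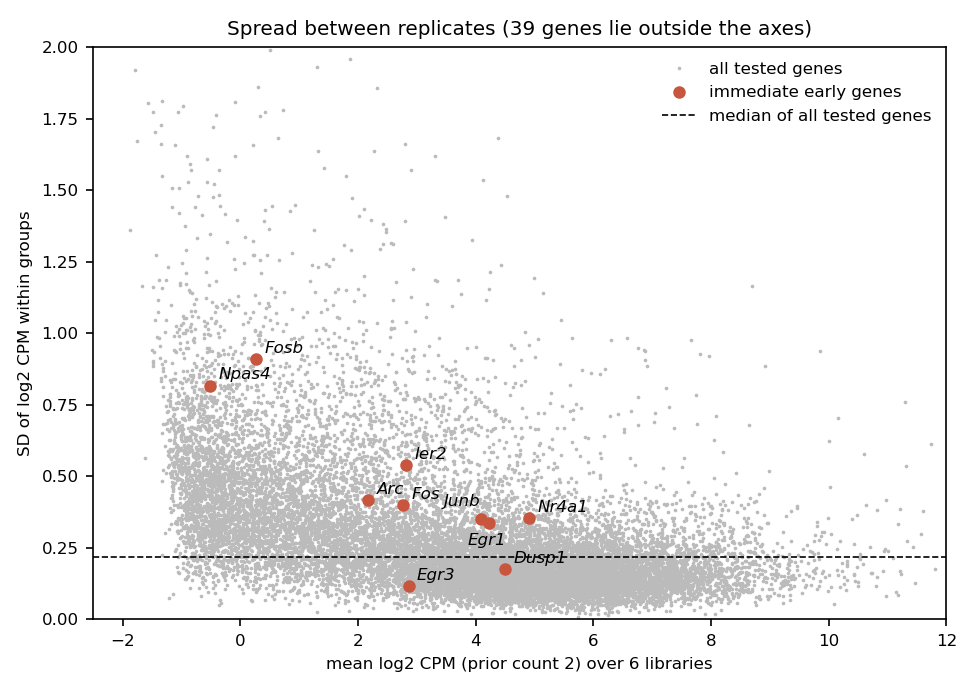
Pooled SD of log2 CPM within groups (y axis) against mean log2 CPM over 6 libraries (x axis) for all tested genes (grey) and the 10 immediate early genes (red); the dashed line is the median of all tested genes, 0.22. Fosb and Npas4 lie high at low expression and Egr3 lies below the line.

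Genes related to these by family or pathway were read from the same fit. Among 6 tested relatives in AP-1, 4 were higher and 2 lower, 0 passed in edgeR, DESeq2 or limma, and 1 had an unadjusted edgeR p under 0.05. It was Atf3, a stress-induced partner of JUN that marks injured sensory neurons, at 5.33, 5.31 and 10.8 CPM in control, against 14.2, 16.3 and 15.0 CPM in conditional knockout. Its groups did not overlap, with all conditional knockout libraries above control as for 3.96% of tested genes. The log2 fold change of Atf3 was 1.08 ± 0.28 (SE) with adjusted p-values of 0.926 from edgeR and 0.067 from DESeq2. With each library left out it ran from 0.91 (without control replicate 1) to 1.52 (without control replicate 3). Jun and Jund, the other JUN proteins, had log2 fold changes of -0.37 ± 0.20 and -0.27 ± 0.17 with groups that overlapped. Jun was highest in control replicate 3, at 64.1 CPM against 30.8 to 42.7 CPM elsewhere, and its log2 fold change without that library was -0.11. Jund was at -0.43 without conditional knockout replicate 1. The median of this list, 0.21 over all libraries, ran from -0.10 (without conditional knockout replicate 1) to 0.69 (without conditional knockout replicate 2, where 7 were tested) with 1 library left out, and was -0.08 over the genes with a mean of at least 1 CPM. Of 5 tested EGR and NR4A relatives, 4 were higher and 1 lower and 0 passed in edgeR, DESeq2 or limma, with a median of 0.24. It was -0.02 without conditional knockout replicate 1 and 0.50 without conditional knockout replicate 2. Nr4a3, a receptor of the Nr4a1 family, was at 1.003, 0.439 and 0.679 CPM in control, against 2.25, 0.372 and 5.14 CPM in conditional knockout. Its log2 fold change of 1.87 ± 0.83 was 0.88 without conditional knockout replicate 3, the highest library, and 2.39 without replicate 2, the lowest. Nab2, a corepressor that EGR factors induce, and Nr4a2 were highest in conditional knockout replicate 1, at 14.9 and 10.1 CPM, as Egr1 and Nr4a1 were.

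Of the 43 other rapidly induced genes 26 were higher and 17 lower, with a median of 0.05 and 0 passing in edgeR, DESeq2 or limma. The balance turned on 1 library, with 11 higher, 32 lower and a median of -0.12 without conditional knockout replicate 1, and 34 higher, 9 lower and a median of 0.17 without conditional knockout replicate 2. With both control replicate 2 and conditional knockout replicate 1 left out, 16 were higher and 27 lower. Its members of smallest p were the NF-κB inhibitor Nfkbia at 0.38 ± 0.15, the clock gene Per1 at 0.30 ± 0.14 and the pseudokinase Trib1 at 0.29 ± 0.15 on the log2 scale. Genes that neurons switch on later, as products of activity rather than as first responders, were lower in 10 of 14. Their median was -0.07. Over the same genes with 1 library left out, it ran from -0.12 (without control replicate 1) to -0.04 (without conditional knockout replicate 1). Sensory neuron markers were lower in 8 of 12, with a median of -0.14. At an unadjusted edgeR p under 0.05 there were 3, against 4.67% of all genes. Avil, the gene that carries Cre, is in that list and is one of the 3. The part of neuron content in the delayed list was not tested. The secreted peptide precursor Vgf was at 41.1, 61.3 and 75.5 CPM in control, against 31.2, 45.5 and 29.4 CPM in conditional knockout, a log2 fold change of -0.75 ± 0.25 with an edgeR adjusted p of 1.0. The neuronal pentraxins Nptx2 and Nptx1 had log2 fold changes of -0.47 ± 0.20 and -0.35 ± 0.19.

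Upstream kinases and transcription factors were lower in 21 of 32, with a median of -0.06. It ran from -0.12 (without conditional knockout replicate 2) to -0.01 (without conditional knockout replicate 3), and with both control replicate 2 and conditional knockout replicate 1 left out 16 were higher and 16 lower. Their members of smallest p were the catalytic subunit of protein kinase A, Prkaca, at -0.39 ± 0.12, the calmodulin kinase Camk2a at -0.48 ± 0.19 and the CREB coactivator Crtc1 at -0.28 ± 0.12. Prkaca and Crtc1 were among 3 of the 32 whose conditional knockout libraries all lay below control, as 4.70% of tested genes did, and the groups of Camk2a overlapped. In the heat shock list, which responds to dissociation and delay, 7 of 15 were higher and 8 lower, with a median of -0.01. Without control replicate 3 there were 12 higher and 3 lower, with a median of 0.16, and without conditional knockout replicate 3 there were 4 higher and 11 lower. It held the cochaperone Bag3 at -0.49 ± 0.13, Hspb1 at 0.26 ± 0.14 and the inducible chaperone Hspa1a at 0.45 ± 0.29, the last at 1.46 to 3.30 CPM over the 6 libraries. The glucocorticoid list includes Dusp1 and shares Per1, Sgk1, Errfi1 and Nfkbia with the other rapidly induced genes, so it is not a separate observation. It was higher in 14 of 16, with a median of 0.20 and the stress gene Ddit4 at 0.30 ± 0.12. It was higher in 11 of 16 without conditional knockout replicate 1 or control replicate 1, and in 9 of 16 without both control replicate 2 and conditional knockout replicate 1. The hypoxia list was higher in 5 of 12 with a median of -0.05. It was higher in 7, with a median of 0.08, without conditional knockout replicate 2 and in 3, with a median of -0.17, without conditional knockout replicate 1. It held Ldha at -0.17 ± 0.12, Vegfa at 0.21 ± 0.16 and Egln3 at -0.26 ± 0.24. In each of these 6 lists 0 genes passed in edgeR, DESeq2 or limma, and between 0 and 2 per list had an unadjusted edgeR p under 0.05.

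**Figure D5:**
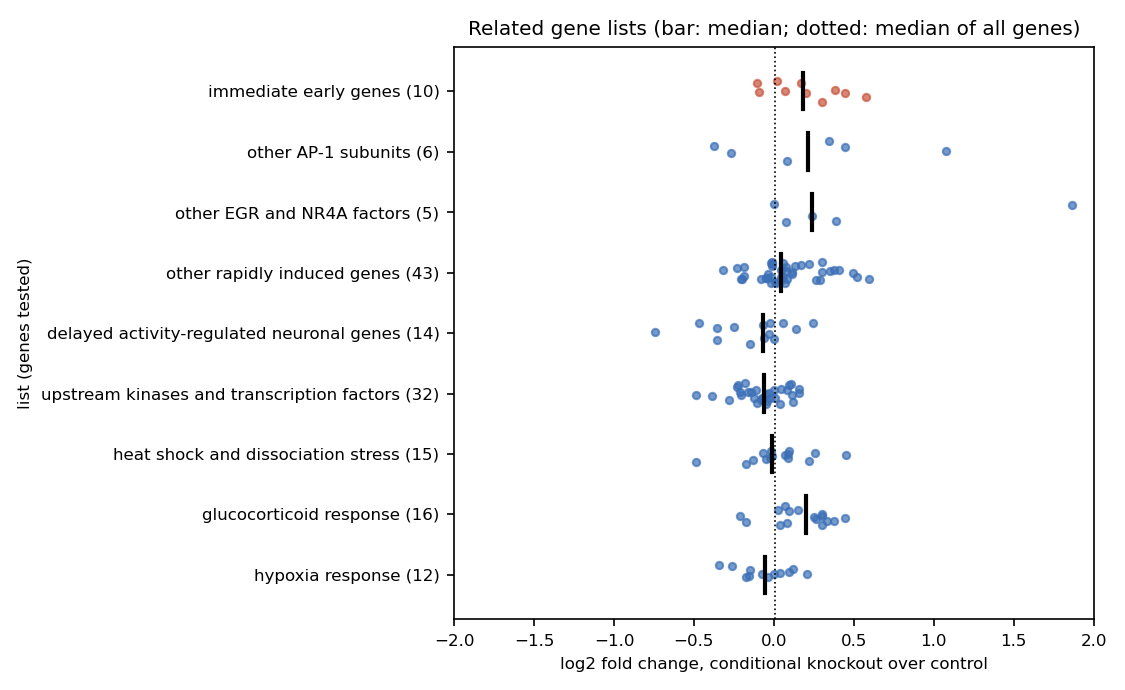
Log2 fold change, conditional knockout over control (x axis), of each tested gene in the immediate early list (red) and 8 related lists (blue), with the median of each list as a bar and that of all genes as a dotted line. The medians lie between -0.07 and 0.24, and the widest points are Nr4a3 at 1.87 (0.88 without conditional knockout replicate 3) and Atf3 at 1.08.

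Genes outside the list whose course over the 6 libraries was most like the mean of the members with at least 1 CPM were found by the root mean square difference of log2 deviations, among genes with a mean of at least 5 CPM. The nearest was the nucleotide hydrolase Samhd1, with a difference of 0.04, followed by Zcchc12 at 0.04 and, at 0.06, the Polycomb gene Cbx7, the integrin subunit Itga4 and the cell death gene Bcl2l11. Pgap2 was next at 0.07. The nearest to Fos alone were Syt16 at 0.06, Fam20a at 0.09 and H2-T24 at 0.13. With 17759 genes and 6 libraries, close matches to any course are found, and the lists describe likeness over these libraries and no more.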

How the data were processed

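Raw counts in the deposited table are whole reads per gene symbol for 6 libraries, per the file headers. They were made with cutadapt, STAR and DESeq2 on mm10, per the submitters' processing notes. Their versions, the counting program and the use of strand were not given in the sources used here. Each normalized signal the authors deposited is the count divided by a factor per library, and the regularized log2 values, log2 fold changes, p-values and fdrtool rates are the authors' own, per the file headers. Other words in that table (direction and pass marks) are theirs too. Only raw counts entered tests here.

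Genes were kept by filterByExpr (minimum count 10), which left 17759 of 22087 and all 10 members. Libraries were scaled by TMM and tested with edgeR 4.0.16 in R 4.3.3 (quasi-likelihood F test, robust, no covariate), with Benjamini-Hochberg adjustment over all genes tested. SEs come from the F statistic and 95% intervals from its t distribution. Log2 CPM used a prior count of 2. DESeq2 1.42.0, limma-trend 3.58.1 (prior count 1), other scalings, filters, the replicate block and each library left out were alternatives. Members, lists and naming rules were chosen with earlier results of these data known; named relatives are the 3 of smallest p per list. Positions, exons and transcript lengths are from GENCODE M21 on GRCm38; the length the authors counted over may differ.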

Additional observations from a re-analysis of the deposited data

How the results depend on the processing

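With DESeq2 35 genes passed over all genes in place of 4, with both control replicate 2 and conditional knockout replicate 1 left out (chosen after seeing the data) 25, and in the fit with a replicate block 0; with each library left out it was 0 to 13. The cause was not tested. In none of these settings did a member or a gene of the related lists pass. The labels do not state that replicate numbers pair libraries. Deviations of same-numbered libraries from their group means correlated at -0.15, -0.25 and -0.13, below every other pairing. With 3 libraries per group, these values cannot settle whether libraries were paired.

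Direction turned for members near 0. With each library left out, log2 fold changes ran from -0.060 to 0.39 for Fos, -0.52 to 0.43 for Fosb, -0.37 to 0.074 for Junb, -0.057 to 0.53 for Arc, -0.34 to 1.02 for Npas4, -0.039 to 0.18 for Dusp1 and -0.40 to 0.19 for Ier2. Fosb was at -0.095 with limma-trend, -0.021 with the replicate block and -0.12 with those 2 libraries left out, where Dusp1 was at -0.0022 and Nr4a2 at -0.19. Of the other named genes, left-out ranges crossed 0 for Bcl2l11 (-0.010 to 0.37), Cbx7 (-0.076 to 0.27), Fam20a (-0.17 to 0.34), Nr4a2 (-0.25 to 0.50) and Syt16 (-0.053 to 0.38). Egr3, Egr1 and Nr4a1 kept their direction in every setting run. With 9 counts in its lowest library, Npas4 is limited by depth.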
